A study of Homo sapiens with 6 samples.

Results

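A set of 7 secretory and surface genes of the luminal prostate epithelium, outside the kallikrein family, were followed through the RNA-seq libraries of a pair of prostate cancer cell lines. They were chosen by name (PGC, AZGP1, ACPP, MSMB, NPY, FOLH1 and TARP), with earlier results of these data known. All 7 were listed among the 21512 gene rows. Each of the 6 libraries was the only one of its line and treatment. The groups were BicR and LNCaP cells, each with 10 nM dihydrotestosterone (DHT, the potent natural androgen), with 1 µM bicalutamide (an antiandrogen drug) or with ethanol vehicle for 24 h. All cells had first spent 3 days in phenol red-free medium with 2.5% charcoal-stripped serum, which is poor in steroids. LNCaP is an established prostate cancer line that responds to androgen. For BicR the labels give prostate cancer as the source, and its derivation is not stated in them.

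Luminal cells line the prostatic glands and release proteins into the seminal fluid. Many of their products are under the control of androgens such as DHT, whose action bicalutamide blocks. Among the secreted products, PGC (pepsinogen C) is the precursor of an acid protease, AZGP1 (zinc-alpha-2-glycoprotein) is a lipid-mobilizing glycoprotein with an MHC class I fold, ACPP encodes prostatic acid phosphatase, MSMB encodes beta-microseminoprotein, and NPY is neuropeptide Y. FOLH1 encodes prostate-specific membrane antigen, a surface carboxypeptidase used as a target for imaging and radioligand therapy. TARP is a transcript that prostate cells make within the gamma locus of the T cell receptor.

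Upstream sequences were at hand for 4 of the 7 genes in RefSeq (GRCh38.p14), and those of PGC, AZGP1 and ACPP are shown because these are the secreted products that passed the filter on low counts. Each line holds the 250 bases before the annotated start, 5′ to 3′ on the gene's strand, with capitals for a TATAAA match on that strand.
PGC (chr6:41747398-41747647, minus strand): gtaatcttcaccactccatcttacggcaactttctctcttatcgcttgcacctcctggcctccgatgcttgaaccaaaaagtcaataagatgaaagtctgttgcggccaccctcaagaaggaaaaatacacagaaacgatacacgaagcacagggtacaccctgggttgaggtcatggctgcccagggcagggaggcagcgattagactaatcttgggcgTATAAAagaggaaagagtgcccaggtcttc
AZGP1 (chr7:99976032-99976281, minus strand): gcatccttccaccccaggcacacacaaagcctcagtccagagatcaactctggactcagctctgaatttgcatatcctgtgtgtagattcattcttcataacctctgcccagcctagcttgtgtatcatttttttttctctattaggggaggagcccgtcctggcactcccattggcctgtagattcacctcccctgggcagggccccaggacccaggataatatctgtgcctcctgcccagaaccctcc
ACPP (chr3:132317157-132317406, plus strand, RefSeq symbol ACP3): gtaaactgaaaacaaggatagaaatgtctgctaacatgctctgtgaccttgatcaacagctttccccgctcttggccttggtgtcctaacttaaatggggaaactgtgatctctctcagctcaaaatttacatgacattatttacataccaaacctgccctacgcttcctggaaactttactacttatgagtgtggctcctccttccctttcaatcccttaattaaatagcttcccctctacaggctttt
The PGC window held TATAAA starting 30 bases before the annotated start, a motif present in 6.8% of 35116 such windows. The steroid response hexamer AGAACA, searched on both strands, occurred in 12.4% of windows, and the same hexamer followed after 3 bases by TGTTCT occurred in 0.00285% (1 window). Neither set of letters was found in the PGC, AZGP1, ACPP or NPY window, which says only that they are not in these 250 bases. The GC content was 49.6% for PGC, 52.8% for AZGP1, 42% for ACPP and 71.6% for NPY. No upstream sequence is printed for FOLH1, TARP or MSMB.

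Total counts per library ran from 42162723 to 55917016. Levels are given as CPM, the count scaled to library size, here with TMM scaling, and comparisons between genes use the deposited RPKM, which also divides by gene length. The LNCaP ethanol library stood apart in the endoplasmic reticulum chaperone gene HSPA5, which had 8598 CPM there and 1245 to 1646 CPM in the other 5 libraries, so the DHT results of the set are also given against bicalutamide, while single genes outside the set are given against ethanol only. The luminal keratins KRT8 and KRT18 were high everywhere, at 603 to 1218 CPM and 340 to 797 CPM. KRT19, another luminal keratin, was low everywhere, at 0.366 to 1.03 CPM. The basal keratin KRT5 had 1 to 4 counts per library, and the summed level of 12 basal epithelial markers was 43.7 to 76.1 CPM. The T cell markers CD3G, CD2, CD8B and PTPRC were at 0 in every library, and the 10 T cell markers in the table summed to 0.383 to 1.34 CPM.

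Per length, FOLH1 dominated these genes. Its RPKM was 103, 216 and 202 in BicR with DHT, bicalutamide and ethanol, and 134, 184 and 162 in LNCaP in the same order. This placed it between rank 124 and rank 369 of all rows in the 6 libraries. AZGP1 came next in 5 libraries, at 21 to 56.5 RPKM, and ACPP in the BicR ethanol library, where the 2 genes (19.3 RPKM for ACPP and 18.5 RPKM for AZGP1) had overlapping counting intervals. The order below them depended on DHT. TARP and PGC reached 22.1 and 6.23 RPKM in BicR with DHT, and 3.92 and 4.23 RPKM in LNCaP with DHT, whereas PGC and MSMB were below 0.5 RPKM in all 4 libraries without DHT, and NPY was listed at 0 in all 6. Neighbours in the order had overlapping 95% counting intervals in 9 of 30 cases, among them PGC and TARP in LNCaP with DHT, and PGC and ACPP in BicR with DHT. FOLH1 made up 52.9% of the summed RPKM of the 7 genes in BicR with DHT, against 84.2% with bicalutamide and 83.1% with ethanol. In LNCaP the share was 67.7% with DHT, against 83.7% with bicalutamide and 77.4% with ethanol.

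**Figure D1:**
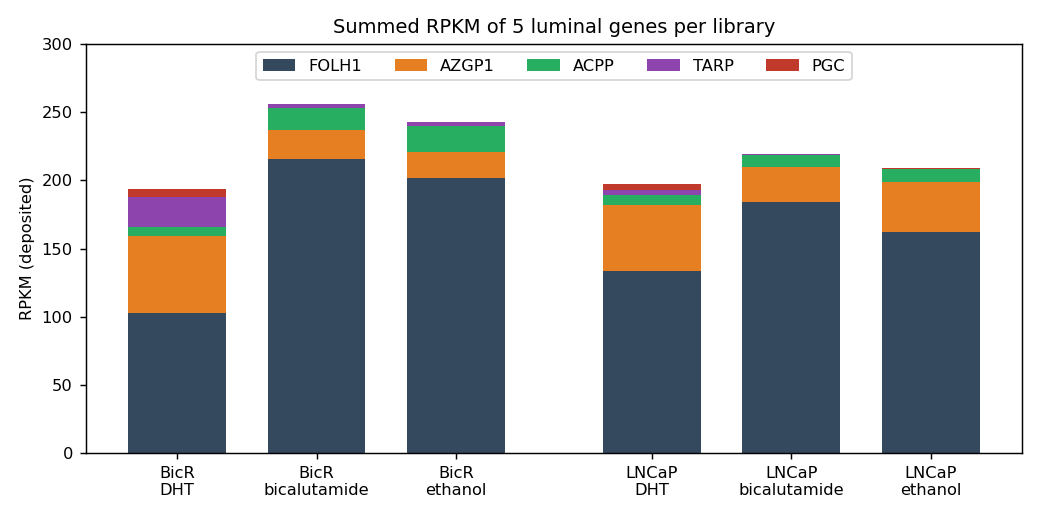
Stacked bars of the deposited RPKM of FOLH1, AZGP1, ACPP, TARP and PGC in each library, BicR left and LNCaP right, with MSMB and NPY left out as they were below 0.8 RPKM. The FOLH1 segment is lowest with DHT in each line (103 and 134 RPKM), while the segments of AZGP1, TARP and PGC are highest there.

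The comparisons asked which of these genes androgen changed in both lines, what the antagonist did in hormone-poor medium, and how the lines differed. Each was tested in an additive model of line and treatment with edgeR's quasi-likelihood test and Benjamini-Hochberg adjustment over 13885 genes. The error of this model comes from how far the 2 lines disagree, over all tested genes and not for each gene alone. With 2 residual and 6.8 prior degrees of freedom, the error of a gene draws more on the other genes than on its own disagreement. No label speaks of repeat cultures, and what a p-value weighs here is the scatter of 6 single libraries, which may be technical. Of the 7 genes, 5 passed the filter of a mean of 20 counts. MSMB, with a mean of 17 counts, and NPY, with 0, did not. PGC and TARP would also have passed on the 4 libraries without DHT, with means of 33.2 and 126 counts.

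Androgen split the set. With DHT, PGC and TARP rose in both lines. Fitted over both lines together, the rise over ethanol was 22.3-fold for PGC and 8.42-fold for TARP. AZGP1 stood 2.03-fold above ethanol without passing the test. ACPP and FOLH1 stood on the lower side, at 0.536 and 0.672 times, without passing. Of the 5 tested genes 2 rose and 0 fell, where 0.158% of all tested genes rose and 0.0072% were lower. The median log2 fold change was 1.02 for the 5 genes and 0.01 for all tested genes. As the genes were chosen with earlier results known, such shares and medians describe the set and do not test it. Against bicalutamide, which shares the DHT libraries, the same call was made: PGC and TARP rose, 0 genes of the set fell, and 0.166% of all tested genes rose and 0% fell, with a median of 1.27 for the 5 genes and 0.00 for all. In bulk RNA, fewer cells that express a gene and less of its RNA per cell cannot be told apart.

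**Figure D2:**
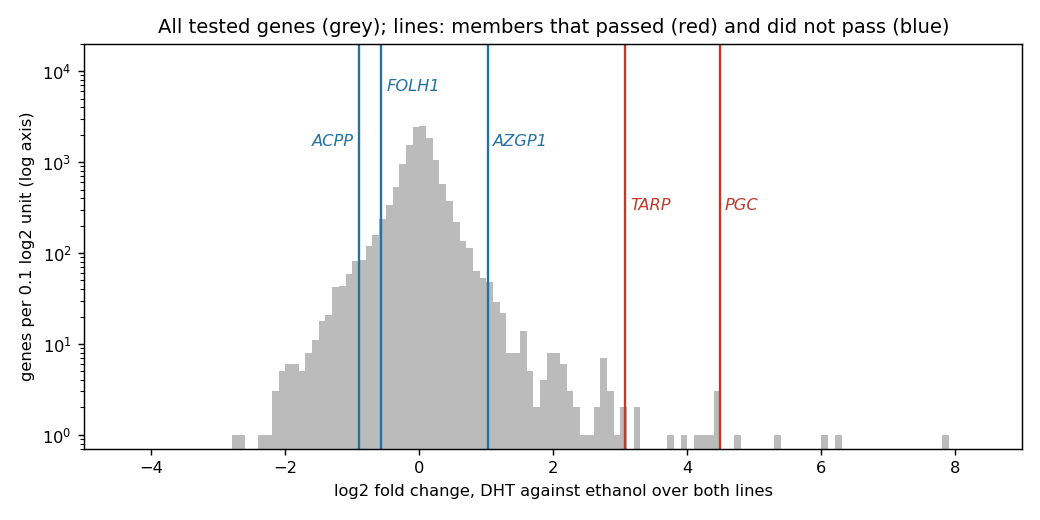
Histogram of the log2 fold change with DHT against ethanol over both lines for the 13885 tested genes (grey, log axis), with a line for each of the 5 tested luminal genes. TARP (3.07) and PGC (4.48) passed the test, and AZGP1 (1.02), FOLH1 (-0.57) and ACPP (-0.90) did not.

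PGC, the protease precursor, showed the widest range among the secreted products. In BicR it had 727 counts with DHT, against 26 with bicalutamide and 17 with ethanol, or 17.3, 0.529 and 0.326 CPM. In LNCaP it had 636 counts with DHT, against 37 with bicalutamide and 53 with ethanol, or 11.7, 0.709 and 1.06 CPM. Both DHT libraries were therefore above all 4 others, and the transcript was scarce without androgen. The ratio of DHT to ethanol was 53.1 in BicR (95% counting interval 32.9 to 91.7) and 11.1 in LNCaP (8.34 to 14.9). Against bicalutamide the ratios were closer, 32.8 in BicR (22.2 to 50.5) and 16.5 in LNCaP (11.9 to 23.7). Over both lines the log2 fold change was 4.48 (SE 0.51, adjusted p = 0.0168) against ethanol and 4.60 (SE 0.51, adjusted p = 0.0164) against bicalutamide, both by edgeR. The lines stood apart with ethanol too. There PGC was lower in BicR than in LNCaP (ratio 0.308, 0.167 to 0.54), whereas with DHT it was higher in BicR (1.48, 1.33 to 1.65). A fit without 1 DHT or ethanol library leaves that treatment in 1 line only, so it does not weigh how far the lines disagree on it. The log2 fold change of PGC against ethanol was 3.71 without BicR DHT and 3.66 without BicR ethanol. For PGC it was 5.32 without LNCaP DHT and 5.55 without LNCaP ethanol. Its close relatives were nearly silent, with PGA4 at 0 in every library and PGA3, PGA5 and the related protease gene CTSE at 0 to 2 counts per library.

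AZGP1 was abundant under every treatment. In BicR it had 110 CPM with DHT, against 38.2 CPM with bicalutamide and 33.3 CPM with ethanol. In LNCaP it had 92.7 CPM with DHT, against 47.7 CPM with bicalutamide and 72.9 CPM with ethanol. The DHT library was the highest in each line and the DHT levels of the lines were close, while both BicR levels without androgen were below both LNCaP ones. The ratio of DHT to ethanol was 3.29 in BicR (3.11 to 3.48) and 1.27 in LNCaP (1.22 to 1.33), and to bicalutamide 2.87 (2.71 to 3.02) and 1.94 (1.85 to 2.04). Over both lines the log2 fold change was 1.02 (SE 0.30, adjusted p = 0.563) against ethanol and 1.27 (SE 0.30, adjusted p = 0.337) against bicalutamide by edgeR, so neither passed. AZGP1 passed against bicalutamide by DESeq2 (1.27, adjusted p = 0.00587), among other settings. Fits without 1 library of a comparison leave that treatment in 1 line, so only effect sizes are given. Against ethanol the log2 fold change was 1.58 without the LNCaP ethanol library and 1.50 without LNCaP DHT. It was smaller without a BicR library: against ethanol 0.53 without BicR DHT and 0.49 without BicR ethanol, and against bicalutamide 0.75 without BicR DHT. The same LNCaP ethanol library was the one with high HSPA5, and the part of that difference in the AZGP1 level was not tested. B2M, which encodes the light chain of classical MHC class I, stood at 0.57 (adjusted p = 0.788) and the heavy chain genes HLA-B and HLA-C at -0.23 and -0.22 (each adjusted p = 1).

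ACPP, the prostatic acid phosphatase gene and a classical serum marker of prostate cancer, ran the other way in BicR. There it had 36.2 CPM with DHT, against 89.4 CPM with bicalutamide and 105 CPM with ethanol. In LNCaP it had 42.8 CPM with DHT, against 47.6 CPM with bicalutamide and 54.2 CPM with ethanol. The DHT library was the lowest in each line, and the gap was wider in BicR, which was near the LNCaP level with DHT and above it without. The ratio of DHT to ethanol was 0.345 in BicR (0.326 to 0.366) and 0.789 in LNCaP (0.746 to 0.835). Over both lines ACPP did not pass (log2 fold change -0.90, SE 0.29, adjusted p = 0.65 by edgeR), nor against bicalutamide (-0.69, SE 0.29, adjusted p = 0.69). Against ethanol ACPP stood at -1.52 without LNCaP DHT and -1.22 without LNCaP ethanol, and at -0.36 without BicR DHT and -0.60 without BicR ethanol. Each of these fits takes the DHT or the ethanol level from 1 line only. BicR exceeded LNCaP 1.93-fold with ethanol (1.85 to 2.03) and 1.88-fold with bicalutamide (1.79 to 1.98), and was at 0.846 times LNCaP with DHT (0.793 to 0.903). No other acid phosphatase gene passed with DHT, with ACP1, ACP2 and ACP6 at 0.08, 0.03 and 0.12 on the log2 scale and ACP5, the low-level tartrate-resistant form, at -0.46, each with adjusted p = 1.

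MSMB, one of the major proteins of seminal plasma, was barely detected. BicR had 27 counts with DHT, 17 with bicalutamide and 6 with ethanol, and LNCaP had 18, 20 and 14 in the same order, or 0.115 to 0.644 CPM over the 6 libraries. The DHT and other libraries overlapped, and the BicR ethanol library was the lowest. The ratio of DHT to ethanol was 5.59 in BicR (2.26 to 16.6) and 1.18 in LNCaP (0.556 to 2.57), and of DHT to bicalutamide 1.86 in BicR (0.978 to 3.64) and 0.865 in LNCaP (0.431 to 1.72). With no filter on low counts MSMB stood at 1.29 (SE 0.69, adjusted p = 0.984 by edgeR) with DHT against ethanol and at 0.40 (SE 0.64, adjusted p = 0.927) against bicalutamide. With bicalutamide against ethanol the ratio was 3 in BicR (1.13 to 9.3) and 1.37 in LNCaP (0.658 to 2.93). The neighbouring gene NCOA4, a coactivator gene, was at 229 to 339 CPM and at -0.06 with DHT (adjusted p = 1).

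NPY had 0 counts in all 6 libraries. A count of 0 allows up to 3 counts per library, or 0.0553 to 0.0715 CPM, counting error only. Whether the 0 reflects the RNA or the way this gene was annotated and counted cannot be told from the table. Of its receptor genes, NPY2R and NPY5R were also at 0, NPY1R had 30 to 108 counts per library and stood at -0.76 with DHT (adjusted p = 0.924), and PPYR1 stood at 0.21 (adjusted p = 1). The prohormone convertase gene PCSK1 was at 0 and PCSK2 had 0 to 2 counts, while PAM and CPE, which finish peptide hormones, were at 21.6 to 30.5 CPM and 64.3 to 88.7 CPM. None of the 5 tested genes of this peptide pathway passed, out of 11 listed, with a median of -0.16.

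FOLH1, the surface antigen, was the most abundant of the set in every library. In BicR it had 417 CPM with DHT, against 821 CPM with bicalutamide and 759 CPM with ethanol. In LNCaP it had 538 CPM with DHT, against 702 CPM with bicalutamide and 663 CPM with ethanol. Both DHT libraries were below all 4 others. The ratio of DHT to ethanol was 0.55 in BicR (0.54 to 0.56) and 0.811 in LNCaP (0.798 to 0.824), and to bicalutamide 0.508 (0.499 to 0.517) and 0.766 (0.754 to 0.778). Counting error was small at these depths (17490 to 40338 counts), and the lower level with DHT was more marked in BicR. FOLH1 did not pass by edgeR against ethanol (log2 fold change -0.57, SE 0.24, adjusted p = 0.868) or bicalutamide (-0.67, SE 0.24, adjusted p = 0.631). Before adjustment the edgeR p of FOLH1 was 0.0436 and 0.0226. By the same test it was 0.0137 and 0.0432 for ACPP, and 0.00784 and 0.00208 for AZGP1. At an unadjusted p under 0.05, 381 of 13885 genes were higher and 401 lower against ethanol, and 483 and 504 against bicalutamide. The log2 fold change of FOLH1 against ethanol was -0.71 without LNCaP ethanol and -0.87 without LNCaP DHT. It was -0.30 without BicR DHT and -0.44 without BicR ethanol. Each of these fits leaves DHT or ethanol in 1 line only, so only effect sizes are given.

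FOLH1B, which RefSeq lists as a transcribed pseudogene and which is a close copy of FOLH1, had the same order of treatments in LNCaP and its lowest level with DHT in both lines. It stood at -0.64 with DHT against ethanol (adjusted p = 0.65 by edgeR). It had 53.3 CPM in BicR with DHT, against 94.3 CPM with bicalutamide and 102 CPM with ethanol, and 69.2 CPM in LNCaP with DHT, against 97 and 87.1 CPM. Its share of the counts of both genes stayed between 10.3% (95% interval 10% to 10.6%, exact Clopper-Pearson) in BicR with bicalutamide and 12.1% (11.8% to 12.5%) in LNCaP with bicalutamide. How reads that match both copies were assigned is not given in the sources used here, so the levels of both are uncertain to that extent. NAALAD2, a related peptidase gene with a low level, stood at -0.54 (adjusted p = 0.958) with DHT, and NAALADL2 at -0.13 (adjusted p = 1).

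TARP gave the most even response of the set and the clearest difference between the lines. In BicR it had 1459 counts with DHT, against 204 with bicalutamide and 232 with ethanol, or 34.8, 4.15 and 4.46 CPM. In LNCaP it had 334 counts with DHT, against 35 with bicalutamide and 33 with ethanol, or 6.15, 0.671 and 0.66 CPM. Within each line the library with DHT was far above the others, and every BicR library was far above the LNCaP library of the same treatment. The ratio of DHT to ethanol was 7.81 in BicR (6.79 to 9.01) and 9.32 in LNCaP (6.51 to 13.8), and to bicalutamide 8.38 (7.23 to 9.75) and 9.17 (6.46 to 13.4). These intervals overlapped between the lines. By edgeR the rise of TARP over both lines was 3.07 in log2 against ethanol (SE 0.26, adjusted p = 0.00726) and 3.13 against bicalutamide (SE 0.26, adjusted p = 0.00645). Without the LNCaP ethanol library it was 2.99 against ethanol. How reads shared with the T cell receptor gamma genes of the same locus were assigned is not stated, so the level of TARP is uncertain to that extent. The gamma constant genes TRGC1 and TRGC2 had no gene row of their own, and the summed T cell markers leave them out. The calls for TARP and PGC were lost without the LNCaP or the BicR bicalutamide library, when 0 genes of the whole table passed. Against ethanol the adjusted p was then 0.325 and 0.327 for TARP and 0.445 and 0.421 for PGC, with log2 fold changes of 3.07 for TARP in both fits and of 4.47 and 4.48 for PGC. Against bicalutamide it was 0.816 and 0.423 for TARP and 1 and 0.423 for PGC.

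Between BicR and LNCaP only TARP passed the test among the 5 tested genes. Its log2 difference was 2.61 in favour of BicR (SE 0.21, adjusted p = 0.000766 by edgeR), 6.75-fold with ethanol (4.67 to 10), 5.65-fold with DHT (5.02 to 6.39) and 6.19-fold with bicalutamide (4.31 to 9.13). Of all tested genes 1.58% were higher and 2.84% lower in BicR. With the LNCaP bicalutamide library left out the adjusted p was 0.0751, and with the BicR one left out 0.0712, at the same log2 difference of 2.61. At least 2-fold on the log2(CPM + 1) scale, TARP was higher in BicR under each treatment and AZGP1 was lower with ethanol (-1.11). Of all tested genes, 2.81% were that much higher and 4.7% lower with DHT, 0.684% and 1.27% with bicalutamide, and 2.62% and 3.88% with ethanol. ACPP stood at 0.55 (adjusted p = 0.197), AZGP1 at -0.40 (0.336), PGC at -0.33 (0.629) and FOLH1 at 0.02 (0.966). For the other 4 tested genes the order of the lines depended on the treatment. ACPP and FOLH1 were higher in BicR without androgen and lower with it, while AZGP1 and PGC were lower in BicR without androgen and higher with it, though for PGC with bicalutamide the interval of the ratio (0.746, 0.434 to 1.27) held 1. The summed T cell markers, at 0.572, 0.57 and 0.499 CPM in BicR with DHT, bicalutamide and ethanol and 0.903, 0.383 and 1.34 CPM in LNCaP, were below TARP in 5 libraries and above it in LNCaP with ethanol.

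**Figure D3:**
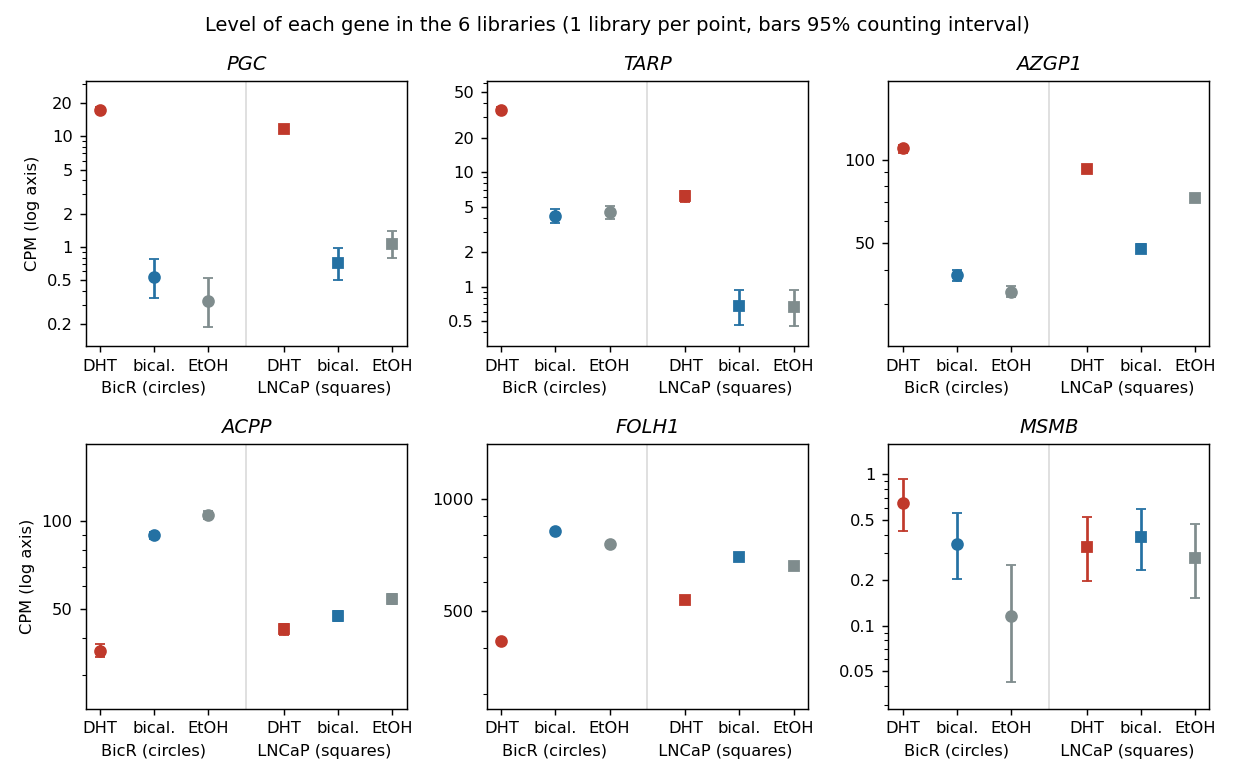
CPM (log axes, each gene on its own range) of 6 luminal genes in each library, BicR as circles and LNCaP as squares, with DHT in red, bicalutamide (bical.) in blue and ethanol (EtOH) in grey; bars are 95% counting intervals, often smaller than the symbol. PGC, TARP and AZGP1 are highest and ACPP and FOLH1 lowest with DHT in each line, and TARP in BicR is above TARP in LNCaP under every treatment.

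Within a line there was no replicate, so differences between single libraries carry no test. A gene was counted when it differed by at least 2-fold on the log2(CPM + 1) scale, on which differences of low genes come out smaller. In BicR with DHT against ethanol, PGC, TARP and AZGP1 were at least 2-fold higher and ACPP at least 2-fold lower, 4 of 5 tested genes, where 1.45% of all tested genes were higher and 0.922% lower. That balance over all genes, 202 higher and 128 lower, turned to 290 and 408 with a pseudocount of 0.1 CPM. In LNCaP, PGC and TARP were at least 2-fold higher and 0 lower, against 1.4% and 1.19% of all tested genes. Against bicalutamide the same genes passed in each line (1.43% higher and 1.04% lower in BicR, 1.58% and 0.893% in LNCaP). The BicR response was the wider for 4 of 5 genes: the log2 ratio of DHT to ethanol was larger in size by 2.26 for PGC, 1.37 for AZGP1, 1.19 for ACPP and 0.56 for FOLH1. For TARP it was smaller by 0.26. With bicalutamide in place of ethanol the gaps were 0.99 for PGC, 0.56 for AZGP1, 1.15 for ACPP, 0.59 for FOLH1 and 0.13 for TARP, in the same directions. Whether the lines responded differently could not be tested with 1 library for each line and treatment.

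**Figure D4:**
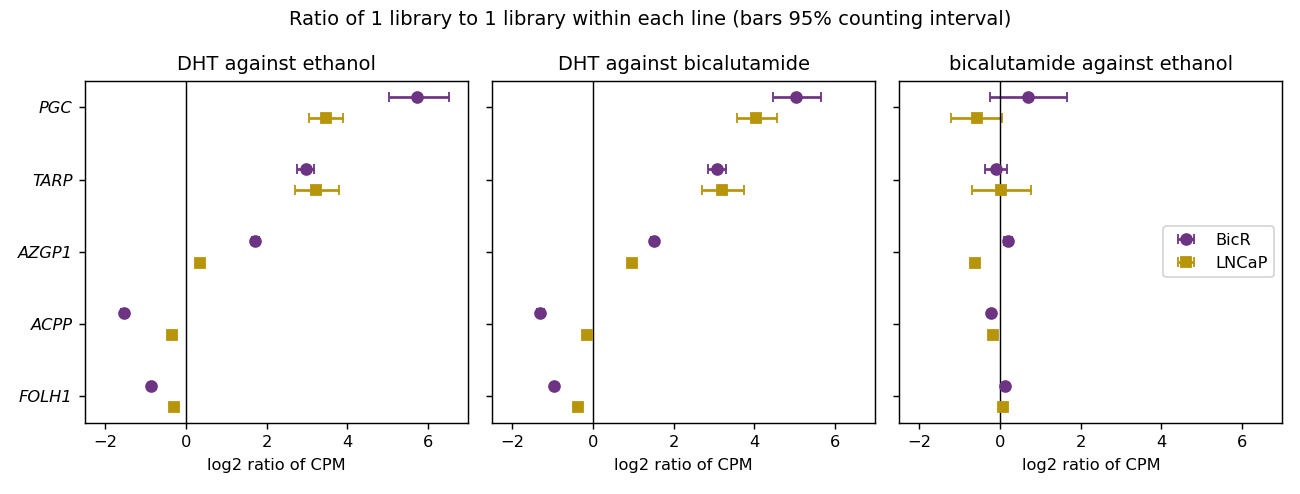
Log2 ratio of CPM between single libraries of a line for 5 luminal genes, BicR as circles above LNCaP as squares; bars are 95% counting intervals. With DHT the BicR points lie farther from 0 than the LNCaP points for PGC, AZGP1, ACPP and FOLH1 and not for TARP, and with bicalutamide against ethanol the points lie between -0.61 and 0.70.

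Bicalutamide against ethanol gave no call in the set. No tested gene passed (log2 fold changes of -0.21 for ACPP, -0.25 for AZGP1, 0.10 for FOLH1, -0.12 for PGC and -0.05 for TARP, each adjusted p = 0.996 by edgeR), and 0% of all tested genes passed in either direction. At an unadjusted p under 0.05, 52 genes were higher and 89 lower; DESeq2 called 0 and limma 1. Without the LNCaP ethanol library PGC stood at 1.03 and AZGP1 at 0.35, the other direction from the values over all libraries. Without BicR ethanol PGC stood at -0.86 and AZGP1 at -0.75. These fits take the ethanol level from 1 line only. In BicR AZGP1 was at 1.15 times its ethanol level (1.07 to 1.23), ACPP at 0.854 (0.82 to 0.889) and FOLH1 at 1.08 (1.07 to 1.10). In LNCaP AZGP1 was at 0.654 (0.622 to 0.689), ACPP at 0.878 (0.831 to 0.927) and FOLH1 at 1.06 (1.04 to 1.07). TARP was at 0.932 in BicR (0.768 to 1.13) and 1.02 in LNCaP (0.613 to 1.69), and PGC at 1.62 (0.847 to 3.18) and 0.669 (0.427 to 1.04). On the log2(CPM + 1) scale none of the 5 tested genes was 2-fold apart in either line, where 0% of all tested genes were in BicR and 1.08% were higher and 1.52% lower in LNCaP.

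The surroundings of the set were read from lists of luminal genes, also chosen with earlier results of these data known. The shares of all genes beside the list counts are therefore a description and not a test. Among the luminal identity genes, SPDEF, an ETS factor of secretory cells, stood at 1.28 with DHT (adjusted p = 0.176 by edgeR), CREB3L4, a transcription factor gene of secretory cells, at 1.26 (adjusted p = 0.24), and CDH1 and ELF3 at -0.43 and -0.41 (each adjusted p = 1).

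Of 18 other surface and membrane products, 14 were tested, 4 rose with DHT, 0 fell and 10 did not pass (median 0.39), where 0.158% of all tested genes rose and 0.0072% were lower. Against bicalutamide 4 rose as well (median 0.34), where 0.166% of all tested genes did. The 4 were the metalloreductase gene STEAP4 (7.88, adjusted p = 0.025), the protease gene TMPRSS2 (2.77, 0.0135), the cold and menthol channel gene TRPM8 (2.70, 0.0342) and the transporter gene SLC45A3, which encodes prostein (2.45, 0.0135). STEAP4 was scarce without androgen, with 135 CPM in BicR and 6.60 CPM in LNCaP with DHT, against 0.0958 to 0.22 CPM in the other 4 libraries. Its counts were 5668 and 358 with DHT and 5 to 11 without. It therefore met the filter of a mean of 20 counts only through the DHT libraries, and its call rests on them. The odorant receptor gene OR51E1 stood at -1.05 (adjusted p = 0.809) and the neprilysin gene MME at -0.24 (adjusted p = 1). Of 24 other secreted products 12 were tested, and 0 rose or fell with DHT against either ethanol or bicalutamide. Their median was -0.02 against ethanol, which includes the LNCaP ethanol library with high HSPA5, and 0.35 against bicalutamide. SPON2 and ZG16B stood highest, at 0.82 (adjusted p = 0.637) and 0.71 (0.556), and CLU and AGR2 lowest, at -0.96 (0.635) and -0.75 (1). Between the lines, 5 of these 12 secreted products were lower in BicR and 0 higher (median -0.97): TFF3 by -2.51, CLU by -2.22, CRISP3 by -1.87, LCN2 by -1.31 and GDF15 by -1.23 on the log2 scale (adjusted p = 0.0111, 0.00393, 0.0282, 0.0219 and 0.043 by edgeR), where 1.58% of all tested genes were higher and 2.84% lower. Of the 14 tested surface and membrane products, 3 were lower in BicR and 2 higher by edgeR (median -0.09). The lower ones were OR51E1 (-5.20), OR51E2 (-3.28) and TSPAN1 (-0.78), and the higher ones SLC45A3 (1.60) and TRPM8 (1.48). Some markers of other cell types were lower in BicR in the same comparison by edgeR. Of 6 tested stromal and endothelial genes, COL3A1 was lower by -2.09 and COL1A1 by -0.72 (adjusted p = 0.027 and 0.042, list median -0.59), and 4 did not pass. Of 5 basal genes, NGFR was lower by -1.56 (adjusted p = 0.0267, list median -0.91), and 4 did not pass. The 4 tested neuroendocrine genes gave 0 calls (median 0.15), and the 1 tested T cell gene did not pass (-0.43). The part of the lower markers in the secreted products was not tested. Markers of other cell types gave 0 calls with DHT: 5 tested basal genes had a median of -0.36, 4 neuroendocrine genes -0.21 and 6 stromal and endothelial genes -0.45, and the 1 tested T cell gene stood at -0.33.

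Among all tested genes, those whose profile lay closest to each member were found by the root mean square difference of the log2(CPM + 1) values of the 6 libraries, each centred on its own mean. Closest to FOLH1 were CCDC69 (0.0512), with 17.2, 35.1 and 31.9 CPM in BicR under DHT, bicalutamide and ethanol and 23.3, 32.4 and 30.1 CPM in LNCaP, and EPAS1, the gene of hypoxia-inducible factor 2-alpha (0.0819). Closest to ACPP were the Wnt pathway transcription factor gene LEF1 (0.103) and the protocadherin gene PCDH15 (0.146). PCDH15 was low, at 0.262 to 2.02 CPM, where differences come out smaller on this scale. LEF1 had 18.4, 42.7 and 44.6 CPM in BicR and 20.4, 21.9 and 22.5 CPM in LNCaP, the same shape as ACPP. TARP lay nearest to SLC45A3 (0.153), which had 1594, 225 and 230 CPM in BicR and 384, 85 and 90.4 CPM in LNCaP under DHT, bicalutamide and ethanol. AZGP1 lay nearest to VWF (0.148), the von Willebrand factor gene, and GNMT (0.185), the glycine N-methyltransferase gene. PGC had less close neighbours, TMPRSS2 (0.352) and ST6GALNAC1 (0.36), a sialyltransferase gene. PGC itself was at 0.326 to 1.06 CPM without DHT, so its differences are also made smaller by this scale. Between members, the nearest pair was ACPP and FOLH1 (0.329) and the farthest ACPP and PGC (2).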

How the data were processed

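The authors deposited, per the file headers, 1 table with raw counts per gene symbol and RPKM for each of the 6 libraries (total RNA, ISOGEN, SOLiD 3 Plus, per the labels' protocols; build hg19 in the submitters' processing notes). Aligner, counting method, annotation and strand use: not given in the sources used here. The RPKM of the authors, scaled to gene length and to a read total of their own, served for levels between genes and as an alternative. From the deposited counts, the 13885 genes averaging 20 counts or more were fitted in edgeR 4.0.16 (R 4.3.3) with TMM scaling, terms for line and treatment, 2 residual and 6.8 prior degrees of freedom, a 2-sided quasi-likelihood test and Benjamini-Hochberg adjustment at 0.05. The fit was also run on simulated counts with planted changes with DHT. These held no difference or disagreement between the lines, so the behaviour of the fit under such disagreement was not tested. Ratios of single libraries carry exact 95% intervals conditional on the summed count, which cover counting error only, as does the floor of 3 counts. Alternatives were DESeq2 1.42.0, limma 3.58.1 on log2(RPKM + 0.1), DESeq2 size factors, no filter, pseudocounts of 0.1 and 5 CPM, and leaving out each library. The members and lists were chosen with earlier results of these data known. Named genes were the 7 members, the list genes that passed with DHT plus the 2 highest and 2 lowest of each list (not all are printed), and the 2 genes nearest each member in profile; the other list genes printed were named after their values were seen. Some genes are not reported here. Sequences are from RefSeq (GRCh38.p14); 27 rows with date-like names were kept.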

Additional observations from a re-analysis of the deposited data

Results flagged for a closer look

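AZGP1 with bicalutamide against ethanol went in opposite directions in the lines, at 1.15 times the ethanol level in BicR (95% counting interval 1.07 to 1.23) and 0.654 times in LNCaP (0.622 to 0.689). The difference between the lines was not tested. The LNCaP ethanol library, which enters this ratio, was also the one with HSPA5 at 8598 CPM; the part of this in the AZGP1 difference was not tested.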

How the results depend on the processing

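PGC and TARP kept a positive log2 fold change with DHT under every alternative run (3.66 to 5.55 and 2.89 to 3.19 against ethanol). Among the alternatives run, their calls with DHT were lost when either bicalutamide library was left out and in no other case. For DHT against ethanol, only these of the fits without 1 library hold both treatments in both lines. A call kept without a DHT or ethanol library is therefore no check on how far the lines disagree there. Of 200 member values of the tested comparisons under an alternative, 164 kept direction and side of the threshold, 12 came to pass, 10 no longer passed and 14 turned sign. All 14 were in bicalutamide against ethanol or between the lines, where no call was made for the gene. Without 1 library, with bicalutamide against ethanol, ACPP ranged from -0.52 to 0.13, AZGP1 from -0.75 to 0.35, PGC from -0.86 to 1.03, FOLH1 from -0.06 to 0.25 and TARP from -0.13 to 0.07, and between the lines PGC from -1.04 to 0.20 and FOLH1 from -0.09 to 0.21. PGC with bicalutamide was 0.03 by limma on RPKM. The cause was not tested. Each fit without 1 library leaves that treatment in 1 line only, so it does not weigh how far the lines disagree on that treatment. Against bicalutamide, AZGP1 also passed with no filter (adjusted p = 0.0447 by edgeR). Without 1 library AZGP1 ranged from 0.75 to 1.71 against bicalutamide, and ACPP from -1.32 to -0.14. Between the lines ACPP ranged from 0.34 to 0.93. Of 108 ratios of single libraries, 94 stayed within their counting interval and 14 moved beyond it, all on RPKM, with 0 turned; that scale moved the median of all genes by up to 0.12 (BicR against LNCaP with ethanol).

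Counts over all genes depended on the tool. DHT against ethanol gave 23 calls, 77 with no filter, 99 by DESeq2 and 0 to 273 when 1 library was left out. DHT against bicalutamide gave 23, 74 with no filter, 122 by DESeq2 and 0 to 197. Bicalutamide against ethanol gave 0, 1 by limma and 0 to 197. BicR against LNCaP gave 614, 1360 with no filter, 1490 by DESeq2 and 0 to 694. The 2-fold counts with pseudocounts of 0.1 and 5 CPM and on RPKM were, for DHT against ethanol, 698, 193 and 183 in BicR (330 on the main scale) and 656, 162 and 173 in LNCaP (359), and for DHT against bicalutamide 672, 195 and 194 in BicR (342) and 597, 185 and 202 in LNCaP (343). For bicalutamide against ethanol they were 640, 175 and 182 in LNCaP (361), and 30 with 0.1 CPM and 6 on RPKM in BicR (0). In BicR the pseudocount also moved the balance: DHT against ethanol had 202 higher and 128 lower, 290 and 408 with 0.1 CPM, and 138 and 55 with 5 CPM, and DHT against bicalutamide 198 and 144, 266 and 406, and 141 and 54. In LNCaP bicalutamide against ethanol had 150 and 211, and 45 and 130 with 5 CPM. The line is a term of the model, so treatments were compared within lines. With 1 library for each line and treatment there were no replicates to pair beyond that. Depth limits MSMB (6 to 27 counts per library).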

Other observations

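KRT14, a basal keratin gene under the filter and named here after its values were seen, had 21 counts in BicR with DHT, against 2 each with bicalutamide and ethanol, and 22 counts in LNCaP with DHT, against 1 and 3. KRT5, its partner in basal cells, had 1 to 4 counts in every library. AGR2, a secretory pathway gene of the disulfide isomerase family, had 12.1 CPM in BicR with DHT, against 3.11 CPM with bicalutamide and 2.61 CPM with ethanol, and 12.5 CPM in LNCaP with DHT, against 8.20 and 88.5 CPM. Its log2 fold change with DHT over both lines, -0.75, had an SE of 1.01.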
